A study of Glycine max with 9 samples.

Results

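The 100 genes with the most reads in unchilled soybean leaf are described here, as they stood before chilling and after 1 h and 24 h at 4 °C. They are the 100 rows with the highest mean over the 3 libraries of 0 h, out of 49777 genes in the table. All 100 passed the filter on low values, which kept 38985 genes. Because the 0 h values chose these members, their levels at 0 h are a description and carry no test. The values are normalized read counts and are not divided by transcript length, so a high rank means many reads and not necessarily many molecules.

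In a green leaf the pool of messenger RNA is uneven. A small number of nuclear genes, typically those for the small subunit of the carbon-fixing enzyme Rubisco, for Rubisco activase and for the chlorophyll-binding proteins of the light-harvesting antennae, usually supply a large part of it. Such families have several near-identical copies in soybean, whose genome carries the remains of old duplications. Neither the table nor the RefSeq list used here paired the table's identifiers with names (0 of 49777 identifiers matched), so no member is given a function below, and the leaf label could not be checked against marker genes.

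The plants were Williams 82 seedlings, 2 weeks old, grown at 20 °C with 18 h of light and 6 h of darkness and not inoculated with Rhizobium. Their unifoliate leaves were harvested before chilling (0 h), after 1 h at 4 °C or after 24 h at 4 °C, with 3 libraries of at least 6 plants per time and chilling begun 4 h after dawn. The groups differed in nothing else that the labels name, but the 1 h leaves were also harvested later in the day and the 24 h leaves were a day older. No unchilled leaves of those times were analysed here. The labels do not say whether replicates came from separate sowings, so p-values measure the spread between these libraries, which may be technical.

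Library totals ran from 70979478 to 81875659 normalized counts. The low values of each library lay on steps worth 1.17 to 4.13 normalized counts, which gives an estimated depth of 18.0 to 67.8 M reads. At that depth the member value resting on the fewest reads, Glyma13g11895 in replicate 2 at 0 h, still had an estimated 9009. Counting error alone on that many reads is 1.05%. Counting error is thus small beside the differences between libraries described below.

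The 5 highest members held 6.89%, 7.09% and 5.28% of the library in replicates 1, 2 and 3 at 0 h. Glyma19g06340, the highest, stood at 1352201, 1433281 and 1548874 normalized counts across replicates 1 to 3 at 0 h, which was 1.82%, 1.92% and 1.91% of the library. It ranked first in all 9 libraries. The identifier next to it in the table's numbering, Glyma19g06370, came next by mean, at 868621, 952190 and 985619. These neighbours differed little between replicates, and Glyma13g07610, of rank 5, was also even, at 709277, 726910 and 815191.

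The members of rank 3 and 4 behaved otherwise. Glyma18g04081 was at 1107217, 1105134 and 503982 normalized counts across replicates 1 to 3 at 0 h. Glyma11g34230 was at 1092820, 1064080 and 419625. Both were far lower in replicate 3 than in the others, and they kept close to each other: the ratio of Glyma11g34230 to Glyma18g04081 lay between 0.793 and 1.02 over the 9 libraries. They took ranks 2 and 3 in replicates 1 and 2 at 0 h and ranks 6 and 7 in replicate 3.

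**Figure D1:**
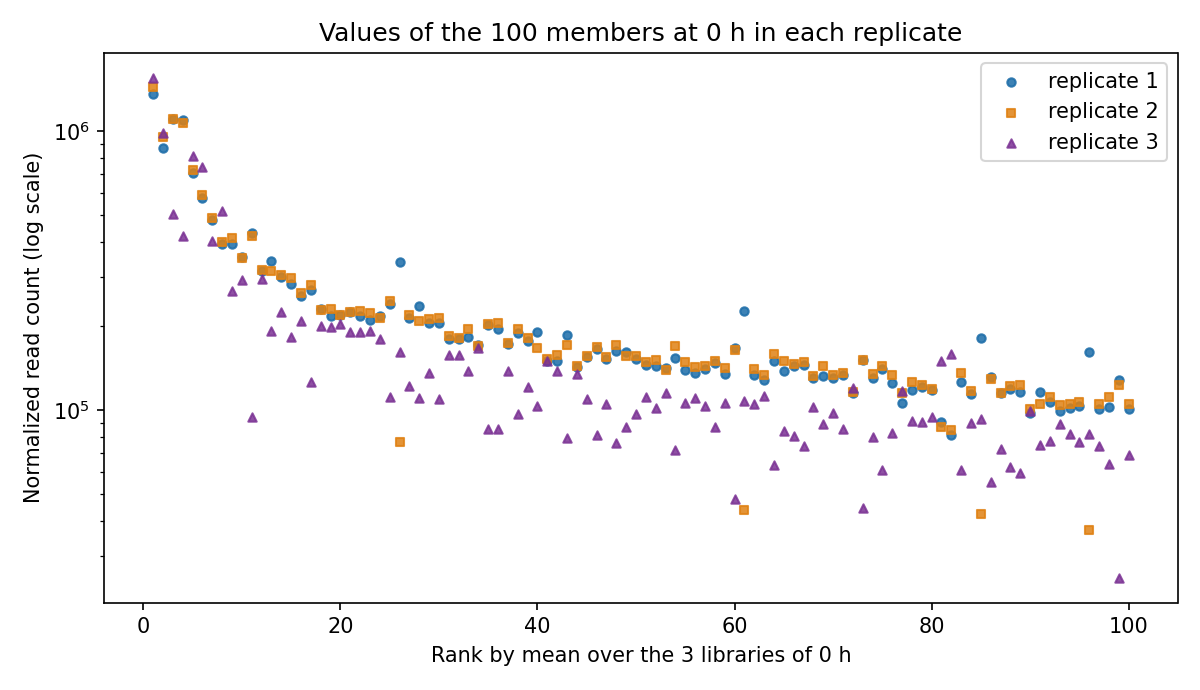
Normalized read counts (log scale) of the 100 members at 0 h against their rank by mean over the 3 libraries, with 1 point per member and replicate. Values drop steeply over the first ranks and then level off; replicate 3 lies below replicates 1 and 2 for most members, and Glyma13g12201 and a few others stand out with a high replicate 1 and a low replicate 2.

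Below the first ranks the values fell off slowly, so the limit at 100 does not mark a break. Glyma03g42310, of rank 99, stood at 127614, 123326 and 25066 normalized counts across replicates 1 to 3 at 0 h, and Glyma02g45190, of rank 100, at 100696, 105329 and 68818. Just outside, Glyma04g42870, the next gene by mean, was at 91702, 96845 and 85346, and Glyma08g19210, the one after it, at 111441, 111778 and 49765. The values on both sides of the limit overlapped. Of the 100 members, 65 were also among the 100 highest genes of each single 0 h library, and 59 among those of each of the 9 libraries. Between 92 and 94 members were among the 100 highest of each library of replicates 1 and 2, against 68 to 72 for replicate 3.

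As a set the members held 19.7% to 31.8% of all normalized counts, and their share differed more between replicate numbers than between times. At 0 h they made up 30.1%, 29.7% and 20.5% of the library in replicates 1, 2 and 3. At 1 h the shares were 29.7%, 28.3% and 19.7%. At 24 h they were 31.5%, 31.8% and 20.9%. Replicate 3 was lowest at each time, and its values did not overlap with those of replicates 1 and 2. The 0 h values ranked the genes and same-numbered libraries deviated together, so these shares are not independent of that ranking. The 100 highest genes of each single library held 30.2%, 30.0% and 22.1% in replicates 1, 2 and 3 at 0 h. At 1 h it was 29.9%, 28.7% and 21.8%, and at 24 h 31.9%, 32.2% and 23.0%. A share does not depend on how a library is scaled. The next 900 genes by mean differed less and the other way: they held 24.7% to 26.2% in replicates 1 and 2 and 26.8% to 27.6% in replicate 3, again with no overlap.

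**Figure D2:**
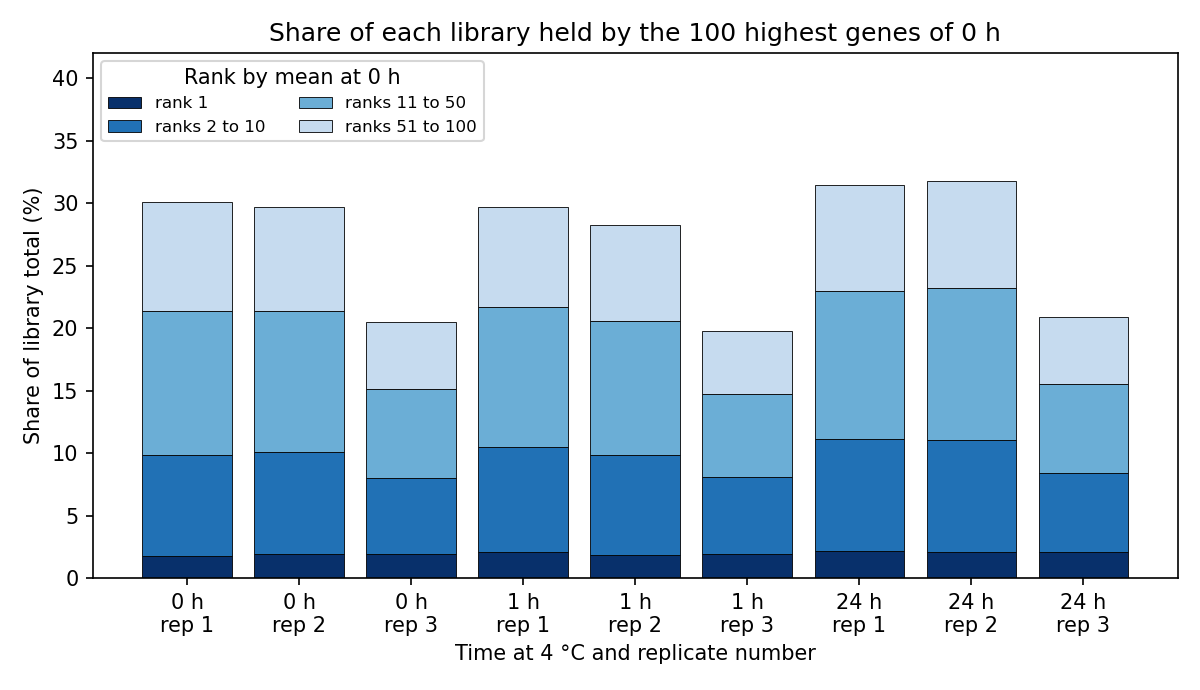
Share of each library total (%) held by the 100 members, stacked by rank class at 0 h, for the 9 libraries by time and replicate number. The stacks reach 28.3% to 31.8% in replicates 1 and 2 and 19.7% to 20.9% in replicate 3.

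Between 1 h and 24 h in the cold the share was higher at 24 h in 3 of 3 replicate numbers, by 1.74, 3.53 and 1.18 percentage points in numbers 1, 2 and 3. The mean difference was 2.15 ± 1.23 points (SD, n = 3 pairs), with an exact two-sided sign-flip permutation p = 0.25, the smallest p that 3 pairs allow. The 0 h libraries that chose the members do not enter this comparison. On the deposited scale the members' sum was 11.8%, 25.4% and 11.4% larger at 24 h in replicates 1, 2 and 3, and the sum of all other genes was 2.98%, 5.94% and 3.58% larger. Members supplied 62.6%, 62.7% and 43.9% of the difference in library total. The difference was thus widest in replicate 2, whose libraries also differed most in total.

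Against 0 h, the share at 1 h differed by -0.34, -1.42 and -0.75 percentage points in replicates 1, 2 and 3, and the share at 24 h by 1.41, 2.11 and 0.42 points. The sign was the same in 3 of 3 numbers each time. Both sets of differences use the 0 h libraries that chose the members, so no test is given for them.

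The members differed between replicate numbers mainly through replicate 3. At 0 h 87 of the 100 members were lower in replicate 3 than in the mean of replicates 1 and 2, at 1 h 86 and at 24 h 89, with a median log2 difference of -0.46, -0.51 and -0.64. Of the next 900 genes by mean 497, 485 and 511 were lower, with medians of -0.09, -0.10 and -0.22. Of the 38985 genes tested 18972, 18994 and 19109 were lower, with a median of 0.04 at each time. Of the 100 members, 84 were lower at each of the 3 times and 10 higher at each. More than 2-fold lower were 20, 24 and 29 members at 0, 1 and 24 h. Over all genes tested it was 20%, 21.4% and 21.7%, and over the next 900 genes by mean 17%, 19.7% and 24.3%. Among other genes with a mean of at least 1000 it was 13.8%, 14.8% and 16.7%. That side thus lies near or a little above all genes tested, and above both sets of abundant genes. More than 2-fold higher were 0, 1 and 4 members, compared with 25.1%, 24.8% and 25.8% of all genes tested. The 0 h count is among the values that chose the members, and the libraries of 1 h and 24 h did not choose them. Libraries of the same number deviated together, however (correlations of 0.69 to 0.95). The counts at 1 h and 24 h are therefore not independent of the choice. Between replicates 1 and 2 the members were close, with a median absolute log2 difference of 0.05, 0.06 and 0.11 at 0, 1 and 24 h.

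The extremes of this difference were large. Glyma03g42310 had a log2 difference of -2.32 for replicate 3 against the other replicates at 0 h. It was 6.88-fold lower in replicate 3 at 24 h, where it stood at 135130, 142637 and 20191 normalized counts in replicates 1, 2 and 3. It ranked between 71 and 79 in the libraries of replicates 1 and 2 and between 411 and 530 in those of replicate 3. Glyma16g10880, of rank 11, behaved alike: its 0 h values were 432351, 420013 and 94547, its 1 h values 379372, 400113 and 68849, and its 24 h values 475569, 498213 and 69319. In both genes the values of replicate 3 lay apart from the other 6 at every time.

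On the other side, Glyma06g17360 stood at 81583, 84690 and 158645 normalized counts across replicates 1 to 3 at 0 h, and Glyma14g02500 at 90260, 87135 and 149413. These had the highest replicate 3 values relative to the others, 1.91-fold and 1.68-fold. At 24 h they were at 85255, 90963 and 148095 and at 81843, 77460 and 151073, so replicate 3 stayed the highest of the 3. What libraries of 1 number have in common is not stated in the labels. A batch of sequencing, library preparation or growth and a difference in plant material cannot be told apart here, nor can fewer cells of a type and less RNA per cell in whole leaves.

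**Figure D3:**
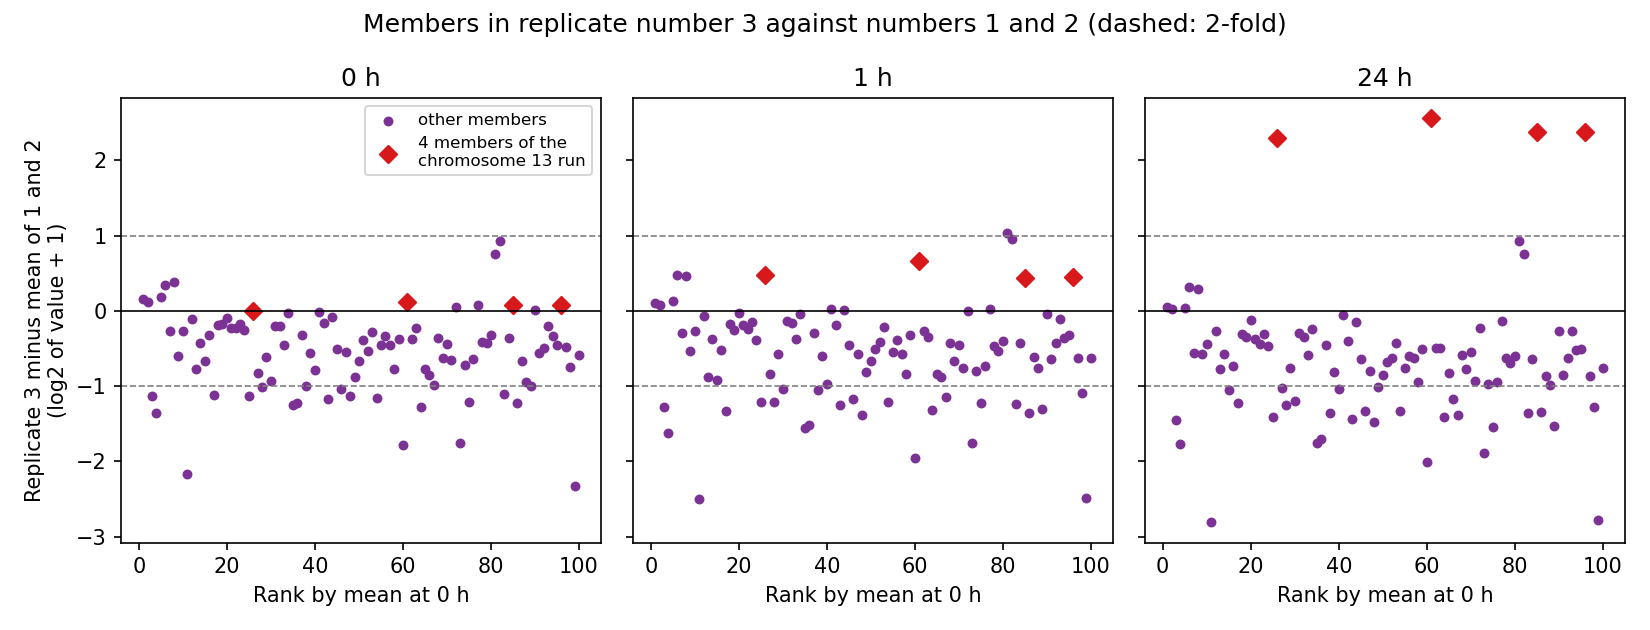
Difference of each member in replicate 3 from the mean of replicates 1 and 2, on the log2(value + 1) scale, against rank, with 1 panel per time and dashed lines at 2-fold. Most members lie below 0 at each time (87, 86 and 89 of 100), and 4 members whose identifiers lie close together on chromosome 13 (red diamonds) lie at 2.29 to 2.56 at 24 h.

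A small group of members followed neither time nor replicate number. Glyma13g12201, of rank 26, was at 340268, 77062 and 160930 normalized counts across replicates 1 to 3 at 0 h. Its 1 h values were 167077, 67431 and 147964, and its 24 h values 62396, 91582 and 370541. Its highest value was 5.94 times its lowest. Its highest libraries were replicate 1 at 0 h and replicate 3 at 24 h, with low values in replicate 2 at each time and in replicate 1 at 24 h. Glyma13g11980, Glyma13g12000 and Glyma13g11895 had the same order of high and low libraries at their extremes, and their ratios to Glyma13g12201 lay within 0.511 to 0.687, 0.465 to 0.578 and 0.395 to 0.510 over the 9 libraries. By their identifiers all 4 are on chromosome 13 and close in numbering. They were singled out after their values were seen. They were also the only members with a more than 2-fold difference between replicates 1 and 2 in the 0 h and the 1 h libraries, where the other 96 members differed by at most 0.29 on the log2 scale.

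These 4 are the members that belong to a longer run of 105 identifiers on chromosome 13, from Glyma13g11810 to Glyma13g12220. The run had 103 identifiers with a mean of at least 100. Of these, 99 had their 2 highest libraries in replicate 1 at 0 h and replicate 3 at 24 h. Over all genes tested, which include the run, 0.805% had that pattern. The limits of the run were set after its values were seen, so this count describes and does not test. The run as a whole made up 3.90%, 0.93% and 1.81% of the library in replicates 1, 2 and 3 at 0 h. The 1 h shares were 2.12%, 0.83% and 1.64% and the 24 h shares 0.73%, 0.87% and 3.71%. The times overlapped throughout. Within the run 27 identifiers had the same pair of values in replicate 2, 212 normalized counts at 0 h and 179 at 1 h. Whether copies in the run share reads was not tested, so values of its single identifiers are uncertain. Without the 4 members the set held 28.8%, 29.4% and 19.9% of the library in replicates 1, 2 and 3 at 0 h, and 31.2%, 31.5% and 19.7% at 24 h. The mean difference between 24 h and 1 h was then 2.05 points.

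**Figure D4:**
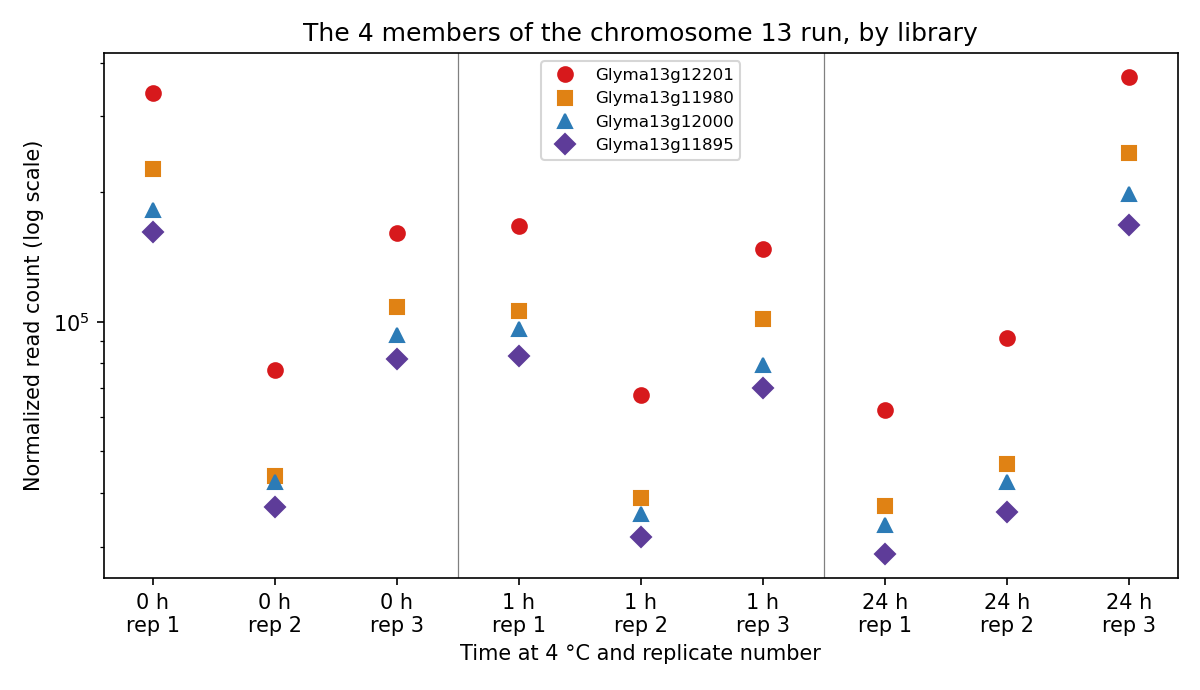
Normalized read counts (log scale) of the 4 members of the chromosome 13 run in the 9 libraries, grouped by time and replicate number. All 4 are highest in replicate 1 at 0 h and replicate 3 at 24 h; Glyma13g12201 runs from 62396 to 370541.

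Changes in the cold stayed under 2-fold within every replicate number in the 96 members outside the chromosome 13 run. Changes were taken within replicate numbers on the log2(value + 1) scale and tested with limma over the whole table, with the replicate number as a block and p-values adjusted by the Benjamini-Hochberg method over 38985 genes. In the 4 members of the run, changes of opposite sign partly cancelled in the mean: Glyma13g11980 differed by -2.60 on the log2 scale in replicate 1 and by 1.19 in replicate 3 between 24 h and 0 h, and the SE of these 4 was 0.76 to 0.80. The median moderated SE of a member's log2 change was 0.07, which gives a median 95% interval of 0.15 to each side, or 1.11-fold, over all 100.

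After 1 h at 4 °C, 13 of the 100 members fell and 0 rose (limma adjusted p under 0.05). The background over all genes tested was 4.47% called, 2.07% lower and 2.4% higher. Among the next 900 genes by mean, 97 were lower and 19 higher, so a like share of the next genes was called. In all 71 members were lower in 3 of 3 replicate numbers, compared with 52.1% of the next 900 genes and 21.6% of all genes tested. Higher in 3 of 3 were 7 members, compared with 12.6% and 17.5%. The median log2 change of the members was -0.16, compared with -0.13 over the next 900 genes and -0.02 over all genes tested. Within replicates 1, 2 and 3 the members' median was -0.14, -0.16 and -0.17. The 0 h libraries chose the members. These counts, and the adjusted p-values against 0 h of members named below, therefore describe and do not test. With members chosen only on the 0 h libraries of the other numbers, the medians within replicates 1, 2 and 3 were -0.13, -0.16 and -0.18. Those sets shared 95, 94 and 96 of the 100 members, so the medians had little room to differ.

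The members that fell most at 1 h were Glyma15g03050 and Glyma17g34690. Glyma15g03050, of rank 17, went from 269742, 279926 and 126173 normalized counts across replicates 1 to 3 at 0 h to 203927, 195169 and 79579 at 1 h. It was lower in every replicate, although replicate 3 at 0 h lay below replicates 1 and 2 at 1 h, so the groups overlapped. The log2 change was -0.53 ± 0.07 (SE from limma, 3 libraries a group, adjusted p = 0.0062), a level 30.7% below 0 h.

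Glyma17g34690, of rank 32, went from 179567, 181751 and 157167 to 124293, 128820 and 113085 normalized counts. Here all 1 h values lay below all 0 h values. The log2 change was -0.50 ± 0.06 (SE from limma, 3 libraries a group, adjusted p = 0.006), and within replicates 1, 2 and 3 it was -0.53, -0.50 and -0.47. Over the 13 members that fell, the log2 change ran from -0.53 to -0.26. All 1 h values lay below all 0 h values in 7 of the 100 members, compared with 2.19% of all genes tested. Of the 100, 2 were also called, compared with 0.413% of all genes tested. Those 2 are among the 13 members called lower, and over the whole table it was 161 of the 808 genes called lower. In 2 members all 1 h values lay above all 0 h values, compared with 2.5% of all genes tested. Of the 100 members 0 were also called, compared with 0.646% of all genes tested. At an unadjusted p under 0.05 there were 53 members, compared with 371 of the next 900 genes by mean and 20.1% of all genes tested.

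No member passed the test for a rise at 1 h. Glyma09g28200, of rank 50, had the largest positive change with the same sign in 3 of 3 numbers. It was at 152620, 155474 and 96939 normalized counts across replicates 1 to 3 at 0 h and at 199584, 171098 and 115953 at 1 h, a log2 change of 0.26 ± 0.08 (SE from limma, 3 libraries a group, adjusted p = 0.085). The groups overlapped through replicate 3.

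Without the replicate block 0 members were called at 1 h (limma, 2 at an unadjusted p under 0.05), with equal library totals 3 were higher and 9 lower, and after quantile normalization 3 were higher and 3 lower. Leaving out a single library left 1 to 42 members called: 3, 5 and 6 on dropping 0 h replicates 1, 2 and 3, then 1, 5 and 3 for the 1 h replicates and 4, 13 and 42 for the 24 h replicates, which enter only through the spread.

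After 24 h at 4 °C, 9 members rose and 4 fell relative to 0 h (limma adjusted p under 0.05). Over all genes tested the background was 5.11% called, 3.01% higher and 2.1% lower, and among the next 900 genes by mean 54 were higher and 59 lower. The median log2 change of the members was 0.04, compared with -0.05 over the next 900 genes and -0.02 over all genes tested. It was 0.08, 0.16 and -0.07 within replicates 1, 2 and 3, so replicate 3 had the opposite sign. These medians were 0.08, 0.16 and -0.07 with members chosen on the other numbers, in sets that shared 95, 94 and 96 members. Members higher in 3 of 3 numbers were 35, compared with 21% of the next 900 genes and 18.7% of all genes tested. Members lower were 8, compared with 30.7% and 21.8%. The 0 h libraries chose the members here too. These counts, and the adjusted p-values against 0 h of members named below, again describe and do not test.

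Glyma09g28200 and Glyma19g01050 rose most at 24 h. Glyma09g28200 stood at 228528, 245380 and 131636 normalized counts across replicates 1 to 3 at 24 h, above its 0 h value in each. Its log2 change was 0.56 ± 0.08 (SE from limma, 3 libraries a group, adjusted p = 0.005), a level 47.5% above 0 h. Within replicates 1, 2 and 3 the change was 0.58, 0.66 and 0.44, while the groups overlapped because replicate 3 was low throughout.

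Glyma19g01050, of rank 7, went from 480686, 489361 and 402290 normalized counts at 0 h, through 599655, 564826 and 472406 at 1 h, to 660633, 729846 and 471543 at 24 h. Replicates 1 and 2 were higher at 24 h than at 1 h, and replicate 3 was at nearly the same value. The log2 change between 24 h and 0 h was 0.42 ± 0.08 (SE from limma, 3 libraries a group, adjusted p = 0.014). Among the members of highest rank, Glyma13g07610 reached 889431, 922716 and 925874 at 24 h, all above its 0 h values, a log2 change of 0.28 ± 0.07 (adjusted p = 0.038 in limma). Glyma19g06340 reached 1640338, 1698983 and 1734808, also with no overlap, but its log2 change of 0.23 ± 0.06 did not pass (adjusted p = 0.068 in limma).

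The members that fell most at 24 h were again Glyma15g03050 and Glyma17g34690, compared with the same 0 h libraries. Glyma15g03050 had 24 h values of 195906, 220036 and 89082 normalized counts, a log2 change of -0.44 ± 0.07 (SE from limma, 3 libraries a group, adjusted p = 0.0084). Glyma17g34690 was at 136214, 143351 and 109312, a log2 change of -0.42 ± 0.06 (adjusted p = 0.007 in limma), with all 24 h values below all 0 h values. The 4 members that fell lay between -0.44 and -0.37 on the log2 scale and the 9 that rose between 0.27 and 0.56. Groups did not overlap in 6 members that were higher and 2 that were lower at 24 h, compared with 2.77% and 2.45% of all genes tested. Of these, 3 that were higher and 2 that were lower were called, compared with 0.888% and 0.516%. At an unadjusted p under 0.05 there were 35 members, compared with 336 of the next 900 genes by mean and 19.9% of all genes tested.

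Without the replicate block 0 members were called at 24 h (limma, 2 at an unadjusted p under 0.05), after quantile normalization 1 was higher and 4 lower, and in a fit of only these 2 groups 2 were higher and 4 lower. Leaving out a single library left 1 to 26 members called: 2, 5 and 11 on dropping 0 h replicates 1, 2 and 3, then 8, 13 and 9 for the 1 h replicates and 1, 4 and 26 for the 24 h replicates.

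**Figure D5:**
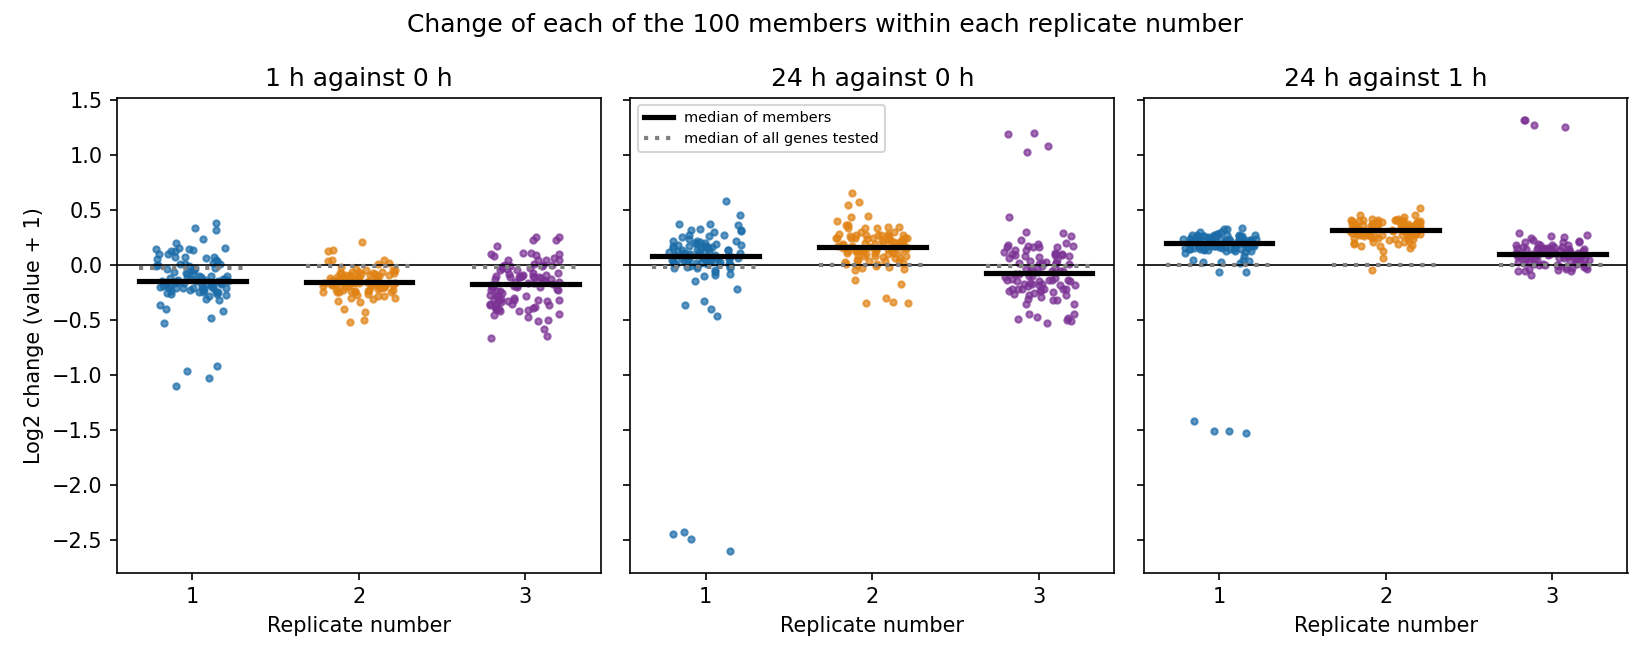
Log2 change of each of the 100 members within each replicate number, for the 3 comparisons, with the median of the members (black bar) and of all genes tested (dotted bar). At 1 h the member medians lie at -0.14, -0.16 and -0.17; between 24 h and 1 h they lie at 0.20, 0.32 and 0.10, and the 4 members of the chromosome 13 run lie apart at the bottom of replicate 1 and the top of replicate 3.

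The comparison of 24 h with 1 h takes its means from no library that chose the members. On the deposited scale 98 of the 100 members had a positive mean log2 change. Among the next 900 genes by mean it was 637, and among the 38985 genes tested 19511. With equal library totals 91 members were positive, and after quantile normalization 40, with 57 negative. As deposited, 77 were higher at 24 h in 3 of 3 replicate numbers, compared with 14.2% of all genes tested and 313 of the next 900 genes by mean. None was lower in 3 of 3. The median log2 change of the members was 0.21, compared with 0.07 over the next 900 genes and 0.00 over all genes tested. The members' median was 0.20, 0.32 and 0.10 within replicates 1, 2 and 3. The members' quartiles lay close together, at 0.16 and 0.23.

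No member passed the test of this difference (limma, 0 of 100 and 0% of all genes tested, smallest adjusted p among the members 0.74). At an unadjusted p under 0.05 on the deposited scale there were 68 members, compared with 206 of the next 900 genes by mean and 5.67% of all genes tested. The largest change was in Glyma04g33360, of rank 60, with 1 h values of 143183, 134824 and 35956 normalized counts and 24 h values of 173101, 179590 and 43918 across replicates 1 to 3. It was higher in each replicate, by 0.27, 0.41 and 0.29 on the log2 scale, with a mean of 0.33 ± 0.07 (SE from limma, 3 libraries a group, adjusted p = 0.74). Its groups overlapped, since replicate 3 was low at both times. Groups did not overlap in 7 members, all higher at 24 h, compared with 0.98% of all genes tested. In 0 members did all 24 h values lie below all 1 h values, compared with 0.895%.

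Size and sign of the median depended on the scale. The members' median at 24 h against 1 h was 0.21 as deposited, 0.10 with equal library totals, 0.15 with equal totals of all other genes and -0.00 after quantile normalization, which gives every library the same set of values by construction. Equal totals moved the median of all genes to -0.10, and the members lay 0.20 above it, compared with 0.21 above it as deposited. At 1 h against 0 h the members' median stayed negative under the same scales, from -0.16 to -0.05, and at 24 h against 0 h it lay between -0.05 and 0.04.

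By the chromosome number in the identifiers the members were spread over 19 chromosomes, from 1 on chromosome 17 to 9 on chromosome 8, with 0 on chromosome 20, which has 2109 genes in the table. Chromosome 13 held 8, of which 4 were those of the run. None came from the 1682 rows whose identifiers carry no chromosome number. Outside the run, 4 pairs of members lay within 10 identifiers of each other, among them the members of rank 1 and 2, Glyma19g06340 and Glyma19g06370, with no identifier of the table between them. Copies of a gene that share reads cannot be separated without sequences, so the value of each identifier in such a pair is uncertain to that extent.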

How the data were processed

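Leaf RNA was sequenced from TruSeq libraries, per the labels' protocols. The score that the authors deposited for each gene in each library is a normalized read count in whole numbers. Tools listed in the submitters' processing notes, without roles, are DESeq 1.12 and cutadapt 1.2.1. For the aligner, the counter, the build and the annotation, no source used here gives a name. Groups and replicate numbers came from the sample titles.

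The members and lists were chosen with earlier results of these data known. Values were analysed as log2(score + 1), which understates changes of low genes. The filter kept 38985 of 49777 genes, those whose mean over 9 libraries reached 10. Limma 3.58.1 in R 4.3.3 (trend and robust moderation, two-sided) fitted all 9 libraries with the replicate number as a block, adjusted over all genes kept. Tables used Python 3.11.15. The fit was tested on simulated data with 2-fold changes. All called changes of members were smaller, so that test does not speak for them.

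Same-numbered libraries deviated together from their group means (correlations across genes of 0.69 to 0.95 over 9 pairs, 9 of 9 libraries best with their own number). This pairing is read from the data, not from the labels. The worth of 1 read was the step size whose multiples, among values from 1 to 40, were most over-represented relative to the whole numbers they cover. Library depth was estimated at 18.0 to 67.8 M reads. Named genes were the 5 highest, ranks 99 to 102, the 2 highest and 2 lowest in replicate 3 at 0 h, and at most 2 rising and 2 falling members per comparison. The chromosome 13 run and the further values of Glyma13g07610 and Glyma19g06340 were named after their values were seen. RefSeq names (59048 genes, assembly Glycine_max v4.0) matched 0 identifiers, so no sequence or marker gene was used.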

Additional observations from a re-analysis of the deposited data

How the results depend on the processing

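Calls rested on the block and the moderation: without the replicate block 0 members were called in each comparison, and without trend and robust moderation 0 were (28 and 20 at an unadjusted p under 0.05 at 1 h and 24 h). Calls at 1 h, 13 as reported, were 6 after quantile normalization (3 higher and 3 lower, compared with 0 and 13), 23 with totals made equal without the chromosome 13 run, 5 of 50 members and 22 of 200 members, and 0 to 42 with a library or a replicate number left out. Calls at 24 h, also 13, were 5 after quantile normalization (1 higher and 4 lower, compared with 9 and 4), 6 in a fit of only the 2 groups compared (2 higher and 4 lower), and 0 to 26 with a library or number left out. Without replicate number 1, 2 and 3, 0, 0 and 20 members were called at 1 h and 0, 0 and 25 at 24 h. Both pseudocounts, both filters and 3 other ways of choosing the 100 members gave 12 to 17 calls at 1 h and 11 to 13 at 24 h. Between 24 h and 1 h, 0 members were called in all 28 alternatives. The difference in share between 24 h and 1 h stayed positive in all 12 of its alternatives, from 1.46 to 2.64 points. Of 184 alternative values for the 8 changes of named members, 34 lost their call, 6 gained it and none changed sign. The alternatives that concern the chromosome 13 run or choose members on other replicate numbers were chosen after seeing the data. The cause of these shifts was not tested. The member value resting on the fewest reads has an estimated 9009, so counting error is small beside the spread between libraries.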
